A study of Mus musculus with 16 samples.

Results

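Dual-specificity MAP kinase phosphatases are enzymes that switch off mitogen-activated protein (MAP) kinases by removing phosphate from both the threonine and the tyrosine of the activation loop. Their expression was followed in mouse cortical neuron cultures after oxygen–glucose deprivation (OGD), an in vitro model of ischemia. The 10 genes *Dusp1*, *Dusp2*, *Dusp4*, *Dusp5*, *Dusp6*, *Dusp7*, *Dusp8*, *Dusp10*, *Dusp14* and *Dusp16* were chosen by name, out of 53679 gene symbols in the deposited table. No expression value entered the choice by the rule itself. All 10 had a mean of at least 0.5 FPKM over the 16 cultures, as 16313 of all symbols did. FPKM stands for fragments per kilobase of transcript per M mapped fragments, and all isoforms of a gene were added up.

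All cultures were wild-type (wt) primary cortical neurons from mouse embryos at embryonic day 15. CONTROL-VEH cultures 1 to 4 received vehicle and a sham procedure, although the treatment label calls vehicle cultures untreated. CONTROL-TIA cultures 5 to 8 received 10 μM tianeptine (TIA), an atypical antidepressant, at 8 days in vitro (DIV), followed by the sham procedure 24 h later. OGD-VEH cultures 9 to 12 received vehicle and then 3 h of OGD at 9 DIV, and OGD-TIA cultures 13 to 16 received TIA followed by the same OGD. RNA of all 4 groups was taken 6 h after OGD or sham. The study calls the cultures of a group biological replicates. Which cultures came from the same preparation is not given in the sources used here. The p-values therefore set a group difference against the spread between these cultures, which need not be the spread between independent preparations.

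MAP kinases such as ERK, JNK and p38 carry growth and stress signals to the nucleus, and several phosphatases of this family are themselves induced by the kinases that they inactivate. *Dusp1*, *Dusp2*, *Dusp4* and *Dusp5* encode nuclear, inducible enzymes, while *Dusp6* and *Dusp7* encode cytoplasmic enzymes that prefer ERK. *Dusp8*, *Dusp10* and *Dusp16* encode enzymes that prefer JNK and p38, and *Dusp14* encodes a small enzyme without the domain by which the others bind kinases. *Dusp9*, a further ERK phosphatase, is not among the 10 genes, and its group means lay between 0.0278 and 0.0585 FPKM.

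The catalytic center of these enzymes is a histidine and the catalytic cysteine, followed after 5 residues by an arginine. Its 24 bases of coding sequence are shown because not every measured isoform contains them. They were read from the GRCm38 genome with the GENCODE M21 annotation, on the coding strand 5′ to 3′, and in every gene they lay within 1 coding exon. Capitals mark the codons of histidine, cysteine and arginine.
Dusp1, chr17:26506592-26506615, minus strand: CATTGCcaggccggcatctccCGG
Dusp2, chr2:127337616-127337639, plus strand: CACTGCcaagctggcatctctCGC
Dusp4, chr8:34818433-34818456, plus strand: CACTGCcaggccggcatctccCGA
Dusp5, chr19:53540951-53540974, plus strand: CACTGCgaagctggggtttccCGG
Dusp6, chr10:99266027-99266050, plus strand: CATTGCttggcaggtatcagcCGC
Dusp7, chr9:106373674-106373697, plus strand: CACTGCctagcaggcatcagcCGT
Dusp8, chr7:142083333-142083356, minus strand: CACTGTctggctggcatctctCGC
Dusp10, chr1:184074293-184074316, plus strand: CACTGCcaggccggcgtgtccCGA
Dusp14, chr11:84048863-84048886, minus strand: CACTGTgcggcaggcgtgagcCGC
Dusp16, chr6:134720559-134720582, minus strand: CACTGCttagctgggatctctCGC
*Dusp1* and *Dusp4* had 22 of the 24 bases in common, as did *Dusp4* and *Dusp10*. The fewest bases in common were 13, for *Dusp5* and *Dusp6* and for *Dusp14* and *Dusp16*. Over the 31 isoforms listed for the 10 genes, 16 encode this signature, 6 are coding without it and 9 have no coding sequence.

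Promoter sequence from 250 bases before to 50 after the transcription start was found for 9 of the 10 genes in RefSeq (GRCm38.p6), with *Dusp4* as the exception. The promoters were searched on both strands for the cyclic AMP response element (CRE, TGACGTCA), the AP-1 site (TGANTCA), the ETS site (CCGGAAGT), the CArG box bound by serum response factor, and a p53 half-site. Only *Dusp1*, *Dusp5* and *Dusp8* held a match, and their promoters are shown for that reason, in the direction of transcription and with matches in capitals.
Dusp1 promoter, chr17:26508423-26508722, minus strand: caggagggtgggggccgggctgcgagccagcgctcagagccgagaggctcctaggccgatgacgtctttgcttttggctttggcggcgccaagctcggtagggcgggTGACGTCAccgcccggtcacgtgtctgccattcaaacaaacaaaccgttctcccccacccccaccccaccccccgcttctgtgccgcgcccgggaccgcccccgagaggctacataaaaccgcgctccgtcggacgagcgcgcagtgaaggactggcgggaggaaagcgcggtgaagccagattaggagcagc
Dusp5 promoter, chr19:53528895-53529194, plus strand: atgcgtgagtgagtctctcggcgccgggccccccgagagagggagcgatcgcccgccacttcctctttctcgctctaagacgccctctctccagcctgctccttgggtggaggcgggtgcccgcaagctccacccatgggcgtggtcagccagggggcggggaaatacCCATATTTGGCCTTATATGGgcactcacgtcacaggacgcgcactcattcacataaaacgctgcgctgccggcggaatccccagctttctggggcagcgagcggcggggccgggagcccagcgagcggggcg
Dusp8 promoter, chr7:142095235-142095534, minus strand: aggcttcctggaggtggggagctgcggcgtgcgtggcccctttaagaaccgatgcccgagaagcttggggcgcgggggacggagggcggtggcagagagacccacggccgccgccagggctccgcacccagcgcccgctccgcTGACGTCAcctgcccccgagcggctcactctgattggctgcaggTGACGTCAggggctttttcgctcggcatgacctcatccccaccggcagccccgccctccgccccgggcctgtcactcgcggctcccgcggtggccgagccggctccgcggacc
*Dusp1* held 1 CRE and *Dusp8* held 2, while a CRE was present in 1.79% of 32851 promoters of the same length. *Dusp5* held 2 adjacent CArG boxes, which were present in 1.63% of promoters. AP-1, ETS and p53 matches, present in 7.81%, 3.89% and 8.36% of promoters, were found in none of the 9 promoters. The background promoters were alike in length only. Their median share of G and C bases was 52.7%, against 67.0% for *Dusp1*, 66.7% for *Dusp5* and 73.3% for *Dusp8*. These searches describe letters in a window and say nothing about binding.

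The depth of the cultures, estimated from the FPKM that 1 read gives, was 20.6 to 26.1 M reads, at which 1 read on 1 kilobase corresponds to 0.0404 to 0.0511 FPKM. This estimate runs above the aligned reads that the study gives, so the reads estimated per gene may be too high. Neuronal markers such as *Tubb3* and *Map2* were high in every culture, and their summed level over 9 genes was 1986 to 2663 FPKM in CONTROL-VEH, 2052 to 2251 in CONTROL-TIA, 1029 to 1853 in OGD-VEH and 1298 to 2088 in OGD-TIA. All 8 astrocyte markers together reached 627 to 2402 FPKM, and the 8 oligodendrocyte lineage markers rested mainly on the precursor genes *Olig1*, *Olig2* and *Pdgfra*. The 6 fibroblast and mural markers lay between 6.79 and 17.8 FPKM. Microglial markers summed to at most 3.13 FPKM over 8 genes and endothelial markers to at most 0.705 FPKM over 5 genes. Fewer cells of a type and less RNA per cell cannot be told apart in these bulk values.

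In CONTROL-VEH cultures, *Dusp8* was the most abundant of the 10 genes, with 73.3 ± 7.64 FPKM (SD, n = 4), and provided 48.0% of their summed FPKM on average. *Dusp7* followed with 20.8 ± 5.81 FPKM, *Dusp6* with 17.1 ± 4.86 FPKM and *Dusp4* with 13.2 ± 2.95 FPKM. The ranges of these neighbors overlapped, since *Dusp7* spanned 14.02 to 26.7, *Dusp6* 11.2 to 22.4 and *Dusp4* 9.16 to 16.2 FPKM. *Dusp1* (9.66 ± 1.16), *Dusp14* (7.13 ± 0.799) and *Dusp2* (4.76 ± 1.42 FPKM) were intermediate. *Dusp16* (3.37 ± 1.60), *Dusp5* (1.80 ± 0.399) and *Dusp10* (1.70 ± 0.448 FPKM) were lowest. The range of *Dusp5* (1.57 to 2.40 FPKM) overlapped both others, whereas *Dusp10* (1.19 to 2.28 FPKM) lay below *Dusp16* (2.38 to 5.74 FPKM). Over all 16 cultures of the 4 groups, the estimated median per culture was 5282 reads for *Dusp8*, 1095 for *Dusp4*, 129 for *Dusp5* and 112 for *Dusp10*.

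The composition of the family differed after OGD. *Dusp4* made up 8.57% of the summed FPKM of the 10 genes in CONTROL-VEH, 8.65% in CONTROL-TIA, 33.6% in OGD-VEH and 19.3% in OGD-TIA. *Dusp8* made up 48.0%, 48.4%, 24.0% and 38.5% in the same order. The summed FPKM of the family itself was 153 ± 15.3 in CONTROL-VEH, 155 ± 6.16 in CONTROL-TIA, 163 ± 13.5 in OGD-VEH and 133 ± 7.72 in OGD-TIA (n = 4 each). These shares are descriptions and were not tested.

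**Figure D1:**
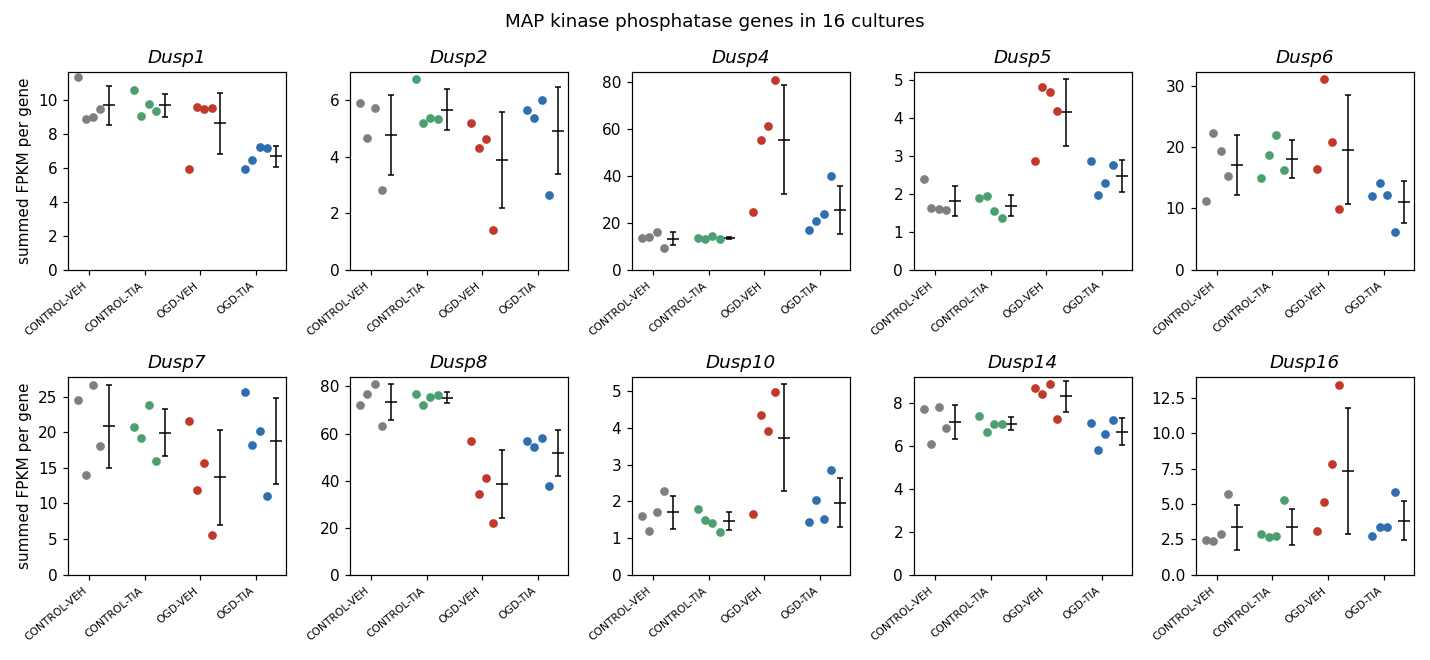
Summed FPKM of each phosphatase gene (y axes, each from 0) in the 4 cultures of each group (x axis). Points are cultures in the order of their numbers, and the bar beside them is the mean with its SD. *Dusp4* and *Dusp5* are higher in all OGD-VEH than in all CONTROL-VEH cultures, and *Dusp8* is lower.

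Whether OGD itself changed the family was asked by comparing OGD-VEH with CONTROL-VEH. *Dusp4* and *Dusp5*, both nuclear enzymes that act on ERK (*Dusp4* also on JNK), rose, and no member fell past both thresholds. A gene was called at an adjusted p (padj, Benjamini-Hochberg over all genes tested, from limma) not above 0.05, if its log2 fold change (log2FC, given with its standard error, SE) was 1 or more in size. By this rule 2 of 10 genes were called upregulated, against 2.4% of 16346 genes tested, and 0 of 10 downregulated, against 1.68%. At the same padj and any fold change, these 2 genes passed, against 8.44% of all genes. An unadjusted limma p under 0.05 was reached by 4 of the 10 genes, against 35.0% of all genes. All 4 OGD-VEH cultures lay above all 4 CONTROL-VEH cultures for 2 genes, against 12.7% of all genes, and below them for 1 gene, against 9.95%. The median log2FC was 0.17 over the 10 genes and 0.10 over all genes tested.

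*Dusp4*, on chromosome 8 of GRCm38 from 34807297 to 34819894, had 13.5, 13.98, 16.2 and 9.16 FPKM in CONTROL-VEH cultures 1 to 4. In OGD-VEH cultures 9 to 12 it had 24.5, 55.3, 61.3 and 80.7 FPKM. Every OGD-VEH culture was thus above every CONTROL-VEH culture, with culture 9 nearest to the controls. The mean rose from 13.2 ± 2.95 to 55.4 ± 23.3 FPKM (n = 4 each; log2FC 1.97, SE 0.35, limma padj = 0.0336; two-sided exact permutation p = 0.0286, the lowest p that 2 groups of 4 can give). *Dusp4* has a single isoform, so no division of reads between isoforms enters this value.

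*Dusp5*, on chromosome 19 from 53529109 to 53542431, had 2.40, 1.63, 1.61 and 1.57 FPKM in CONTROL-VEH. In OGD-VEH it had 2.88, 4.83, 4.69 and 4.20 FPKM. Again no culture overlapped, and culture 9 was the lowest of its group. The mean rose from 1.80 ± 0.399 to 4.15 ± 0.888 FPKM (log2FC 1.16, SE 0.23, limma padj = 0.0347; exact permutation p = 0.0286). *Dusp5* too has a single isoform, and its promoter is the one with the adjacent CArG boxes shown above.

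Neither call held when 1 culture other than OGD-VEH 9 was left out. With any culture other than OGD-VEH 9 left out, 7 omissions in all, the log2FC of *Dusp4* stayed between 1.74 and 2.07, and its padj from limma lay between 0.0577 and 0.103. For *Dusp5* the log2FC stayed between 1.08 and 1.29 and the padj between 0.0629 and 0.108. In these omissions (CONTROL-VEH 1, 2, 3 or 4, or OGD-VEH 10, 11 or 12) 0 of the 10 phosphatases and 1 to 71 of all genes were called by limma. Without OGD-VEH 9, in contrast, 2186 genes were called, and among them *Dusp4*, *Dusp5*, *Dusp8*, *Dusp10* and *Dusp16*. Without a filter on low values, more genes were tested and neither *Dusp4* (limma padj = 0.0654) nor *Dusp5* (0.0744) was called, and with a pseudocount of 1 the log2FC of *Dusp5* was 0.87.

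The other inducible nuclear enzymes did not pass the test. *Dusp1*, the founding member of the family and an early stress gene, had 9.66 ± 1.16 FPKM in CONTROL-VEH against 8.60 ± 1.80 FPKM in OGD-VEH (log2FC -0.19, 95% interval -0.62 to 0.24, limma padj = 0.505). Its OGD-VEH values were 5.90, 9.54, 9.43 and 9.52 FPKM, so culture 9 alone lay below the CONTROL-VEH range. *Dusp2* had 4.76 ± 1.42 and 3.88 ± 1.71 FPKM (log2FC -0.39, interval -1.36 to 0.59, limma padj = 0.545).

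The cytoplasmic ERK phosphatases overlapped between the groups as well. *Dusp6* had 11.2, 22.4, 19.3 and 15.3 FPKM in CONTROL-VEH and 16.5, 31.1, 20.9 and 9.84 FPKM in OGD-VEH (log2FC 0.13, interval -0.68 to 0.93, limma padj = 0.821). The highest and the lowest of these 8 cultures were both in OGD-VEH. *Dusp7* had 20.8 ± 5.81 and 13.7 ± 6.67 FPKM (log2FC -0.71, interval -1.62 to 0.19, limma padj = 0.231).

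The phosphatases that prefer JNK and p38 did not share a direction. *Dusp8*, on chromosome 7 from 142079490 to 142095843, had 72.1, 76.8, 81.0 and 63.2 FPKM in CONTROL-VEH and 56.9, 34.3, 41.0 and 22.1 FPKM in OGD-VEH. All OGD-VEH cultures were below all CONTROL-VEH cultures, and the ratio of the means was 0.527. The gene lay just outside both thresholds (log2FC -0.998, SE 0.26, limma padj = 0.0502; exact permutation p = 0.0286). Without OGD-VEH 9 it was called, with a log2FC of -1.21 (limma padj = 0.0077). With isoforms weighted by length, the log2FC of *Dusp8* was smaller, at -0.66 (SE 0.19, limma padj = 0.0428), and it passed the padj only.

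*Dusp10*, on chromosome 1 from 184013302 to 184075636, had 1.60, 1.19, 1.72 and 2.28 FPKM in CONTROL-VEH and 1.65, 4.36, 3.92 and 4.98 FPKM in OGD-VEH. Cultures 10 to 12 were above all controls, whereas culture 9 lay within the control range (log2FC 1.02, SE 0.36, limma padj = 0.0882; exact permutation p = 0.0857). *Dusp16*, on chromosome 6 from 134715468 to 134792625, had 2.47, 2.38, 2.88 and 5.74 FPKM in CONTROL-VEH and 3.09, 5.16, 7.81 and 13.4 FPKM in OGD-VEH (log2FC 1.004, SE 0.46, limma padj = 0.154; exact permutation p = 0.114). Here CONTROL-VEH 4 stood among the OGD values. With all 16 cultures in one fit *Dusp10* was called (limma padj = 0.0292). Without OGD-VEH 9, both genes were called, *Dusp10* with a log2FC of 1.36 (limma padj = 0.0073) and *Dusp16* with 1.35 (limma padj = 0.0419). *Dusp14* had 7.13 ± 0.799 and 8.31 ± 0.739 FPKM, with a log2FC of 0.22 (interval -0.09 to 0.54, limma padj = 0.278).

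Whether OGD changed the family in TIA-treated cultures was asked by comparing OGD-TIA with CONTROL-TIA. Of the 10 genes 0 were called by limma, as were 0.0% of 16242 genes tested, and 5 had an unadjusted p under 0.05, against 19.5% of all genes. The 5 were *Dusp1*, *Dusp4*, *Dusp5*, *Dusp6* and *Dusp8*, for which the groups did not overlap (exact permutation p = 0.0286 each). OGD-TIA lay above CONTROL-TIA for 2 of them, against 9.51% of all genes, and below for 3, against 6.72%. The median log2FC was -0.11 over the 10 genes and 0.04 over all genes.

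*Dusp4* had 13.6, 12.9, 14.3 and 13.1 FPKM in CONTROL-TIA and 17.0, 20.8, 23.6 and 39.9 FPKM in OGD-TIA (log2FC 0.83, SE 0.24, limma padj = 0.148). Culture 16 was the highest of its group, between OGD-VEH 9 and 10. *Dusp5* had 1.89, 1.94, 1.56 and 1.37 FPKM in CONTROL-TIA and 2.87, 1.96, 2.28 and 2.75 FPKM in OGD-TIA (log2FC 0.52, SE 0.18, limma padj = 0.197). *Dusp8* had 75.2 ± 2.21 and 51.7 ± 9.60 FPKM (log2FC -0.56, SE 0.14, limma padj = 0.130). The signs for these 3 genes were those seen with vehicle.

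*Dusp1* had 10.6, 9.00, 9.73 and 9.32 FPKM in CONTROL-TIA and 5.92, 6.43, 7.20 and 7.12 FPKM in OGD-TIA. Every OGD-TIA culture was lower (log2FC -0.53, SE 0.10, limma padj = 0.108), and this padj was the lowest among the 10 genes in this comparison. *Dusp6* had 15.0, 18.7, 22.03 and 16.3 FPKM in CONTROL-TIA and 12.01, 14.1, 12.2 and 6.16 FPKM in OGD-TIA (log2FC -0.74, SE 0.26, limma padj = 0.193). The other 5 genes overlapped, with log2FC values of -0.26 for *Dusp2*, -0.14 for *Dusp7*, 0.37 for *Dusp10*, -0.08 for *Dusp14* and 0.18 for *Dusp16*.

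**Figure D2:**
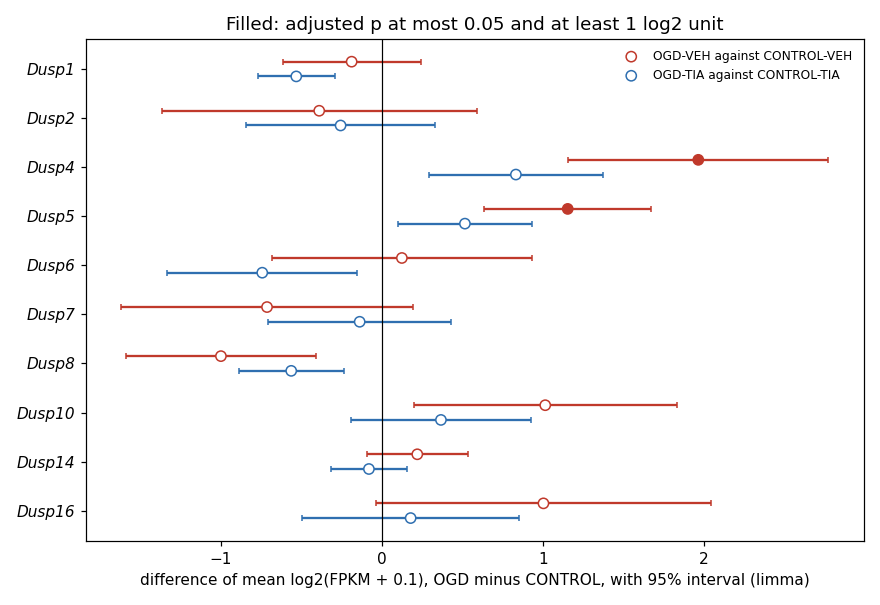
Difference of mean log2(FPKM + 0.1) between OGD and CONTROL cultures (x axis) for each phosphatase gene (y axis), with vehicle in red and with TIA in blue (4 cultures against 4). Bars are 95% intervals from limma, and filled points passed both thresholds, which only *Dusp4* and *Dusp5* with vehicle did.

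In sham cultures no difference with TIA was detectable. Between CONTROL-TIA and CONTROL-VEH, the log2FC values of the 10 genes lay between -0.18 and 0.29, and 0 were called, against 0.0% of 16170 genes. None had an unadjusted limma p under 0.05, against 3.84% of all genes, and every padj was 0.9994. The 95% interval was -0.16 to 0.25 for *Dusp8* and -0.33 to 0.43 for *Dusp4*, so a difference of 1 log2 unit lay outside both. For *Dusp16* it was wider, at -0.71 to 0.79.

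Whether TIA pretreatment changed the family after OGD was asked by comparing OGD-TIA with OGD-VEH directly. Of the 10 genes 0 were called, against 0.0% of 16351 genes, and 3 had an unadjusted limma p under 0.05, against 7.91% of all genes. *Dusp5* was 2.47 ± 0.422 FPKM in OGD-TIA and 4.15 ± 0.888 FPKM in OGD-VEH, with no overlap (log2FC -0.72, SE 0.21, limma padj = 0.551; exact permutation p = 0.0286). *Dusp14* was 6.67 ± 0.633 and 8.31 ± 0.739 FPKM, also without overlap (log2FC -0.31, SE 0.13, padj = 0.551; exact permutation p = 0.0286). The share of all genes without overlap was not computed for this comparison, so these separations have no background to be read against. *Dusp4* was 25.3 ± 10.1 and 55.4 ± 23.3 FPKM, and the groups overlapped through OGD-VEH 9 and OGD-TIA 16 (log2FC -1.08, SE 0.39, padj = 0.551; exact permutation p = 0.0571). The medians were -0.53 over the 10 genes and -0.05 over all genes, and the smallest padj among the 10 genes was 0.551 from limma.

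Whether TIA altered the OGD effect was tested as an interaction over all 16 cultures. Again 0 of the 10 genes were called, against 0.0% of 16313 genes, and 2 had an unadjusted limma p under 0.05, against 6.06% of all genes. These were *Dusp4*, with an interaction of -1.13 log2 units (SE 0.45, limma padj = 0.722), and *Dusp5*, with -0.64 (SE 0.28, limma padj = 0.722). None of the 10 genes passed the interaction test. For *Dusp8* the difference was 0.44, with an interval from -0.23 to 1.10. The median difference was -0.49 over the 10 genes and -0.04 over all genes. With array quality weights, by which cultures that depart from their group count less, *Dusp4* alone of the 10 genes was called for the interaction (-1.35, limma padj = 0.0499). With these weights *Dusp4* and *Dusp10* were called between OGD-TIA and OGD-VEH (-1.38, padj = 0.0453, and -1.10, padj = 0.0464). Calls over all genes rose as well, from 0 to 101 for the interaction and from 0 to 408 between OGD-TIA and OGD-VEH.

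All 8 OGD cultures were then compared with all 8 CONTROL cultures in one model, with TIA as a covariate. *Dusp4* was called upregulated, so that 1 of 10 genes was called in this direction, against 2.8% of 16313 genes, and 0 downregulated, against 1.99%. Its log2FC was 1.40 (SE 0.26, limma padj = 0.0028), and it was called in each of 16 omissions of 1 culture. At any fold change, 5 genes passed the padj, against 32.1% of all genes. Besides *Dusp4* these were *Dusp5* (log2FC 0.84, padj = 0.003), *Dusp8* (-0.78, padj = 0.004), *Dusp10* (0.69, padj = 0.0332) and *Dusp1* (-0.36, padj = 0.0247, all from limma). The medians were -0.12 over the 10 genes and 0.08 over all genes.

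The values of several genes also depended on which isoforms were counted. *Dusp8* has a 4804-base isoform with the phosphatase signature and an 853-base coding isoform without it. The long isoform had 40.8 to 53.5 FPKM in CONTROL-VEH and 22.1 to 41.3 FPKM in OGD-VEH, so the groups overlapped slightly. The short isoform had 21.96, 28.7, 27.5 and 22.5 FPKM in CONTROL-VEH and 15.7, 0.158, 5.38 and 0.0 FPKM in OGD-VEH, and 12.8, 15.3, 14.5 and 9.20 FPKM in OGD-TIA against 23.2 to 27.5 FPKM in CONTROL-TIA. From signature-carrying isoforms alone, the log2FC of *Dusp8* with vehicle was -0.56 (limma padj = 0.0869), in place of -0.998. Part of the lower *Dusp8* value was thus in a short form whose annotated coding sequence lacks the catalytic center.

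*Dusp16* showed the reverse. From its signature-carrying isoforms, OGD-VEH (3.09 to 8.50 FPKM) lay above CONTROL-VEH (2.37 to 2.88 FPKM) without overlap, with a log2FC of 0.9992 (limma padj = 0.0561; exact permutation p = 0.0286). OGD-TIA (2.73 to 5.84 FPKM) also lay above CONTROL-TIA (2.59 to 2.69 FPKM), by a narrow margin and without a call (log2FC 0.45, SE 0.22, limma padj = 0.290; exact permutation p = 0.0286). The overlap in the summed values came from short noncoding or decay-targeted isoforms, which held 3.11 FPKM in CONTROL-VEH 4 and 2.63 FPKM in CONTROL-TIA 8, and 2.16 and 4.89 FPKM in OGD-VEH 11 and 12. Each of these 2 isoforms was listed at 0 in all other cultures.

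*Dusp7* and *Dusp1* were affected as well. The 3213-base isoform of *Dusp7* had 12.6 to 14.8 FPKM in CONTROL-VEH and 5.62 to 9.21 FPKM in OGD-VEH, without overlap, while a 658-base coding isoform varied from 0.014 to 11.1 FPKM within CONTROL-VEH alone. With its signature-carrying isoforms, the log2FC of *Dusp7* was -1.04 (limma padj = 0.0605). For *Dusp1* in OGD-VEH 9, 0.987 FPKM was assigned to the coding isoform and 4.14 FPKM to a 2313-base isoform with a retained intron, leaving 16.7% with the signature, against a median of 70.9% over all cultures. A second retained-intron isoform of *Dusp1* had 1.37 to 2.80 FPKM in CONTROL-TIA and 0.222 to 0.546 FPKM in OGD-TIA. The coding isoform, by contrast, overlapped between these groups (6.33 to 7.01 against 4.97 to 6.82 FPKM), so the separation of *Dusp1* with TIA did not hold for the coding isoform alone.

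**Figure D3:**
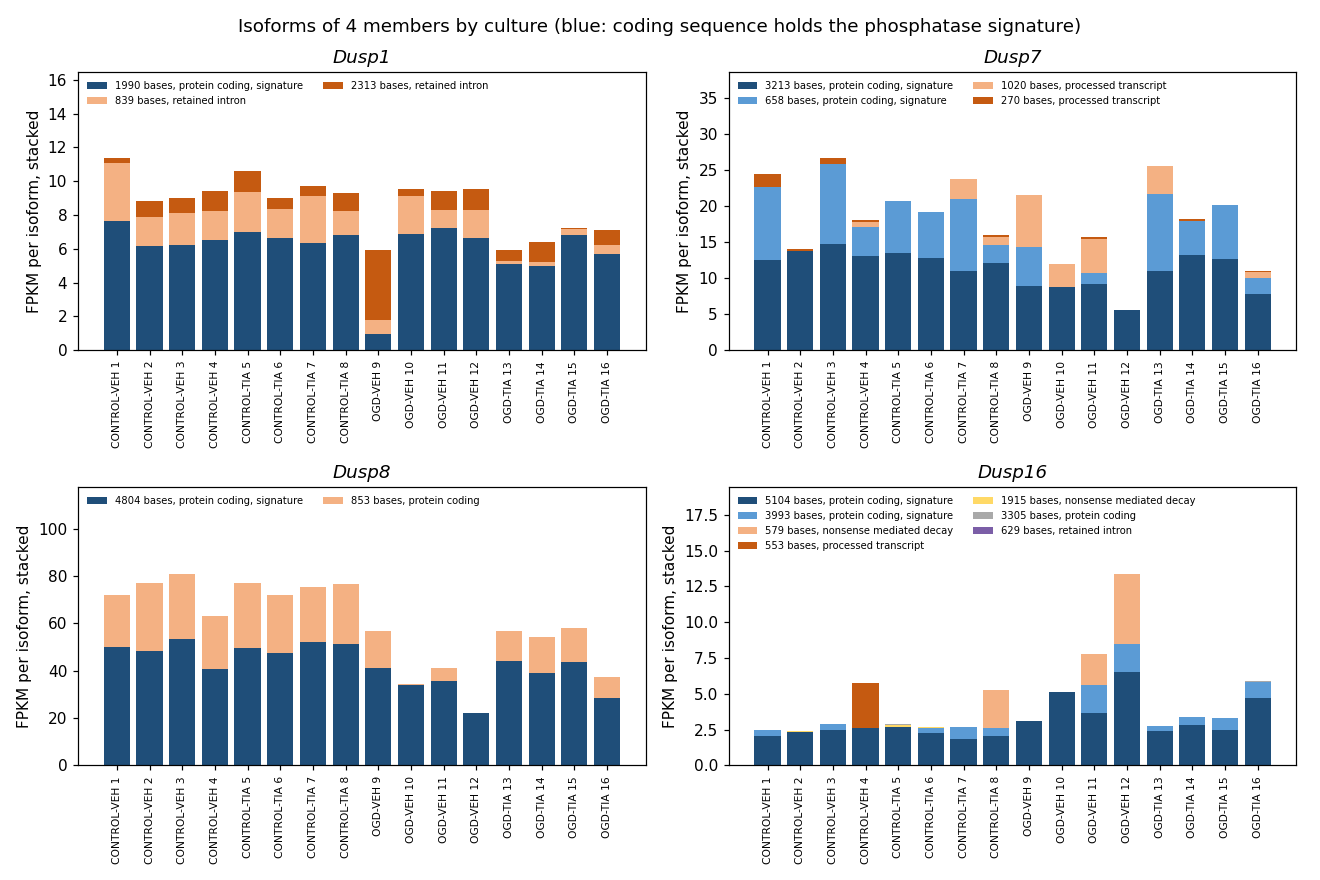
FPKM of each annotated isoform, stacked, in the 16 cultures (x axis) for *Dusp1*, *Dusp7*, *Dusp8* and *Dusp16*. Blue marks isoforms that encode the phosphatase signature, and other colors mark the rest. The short *Dusp8* isoform nearly disappears in OGD-VEH 10 and 12, and in OGD-VEH 9 most *Dusp1* is assigned to a retained-intron isoform.

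The levels of several members moved with cell type markers. In OGD-VEH, the summed neuronal markers were below every CONTROL-VEH culture, and the oligodendrocyte lineage markers were above (239 to 667 FPKM against 174 to 209). Progenitor markers over 6 genes were 126 to 404 FPKM in OGD-VEH and 88.0 to 147 in CONTROL-VEH. Astrocyte markers were 974 to 2402 FPKM in OGD-VEH and 727 to 1555 in CONTROL-VEH, while the defining microglial marker *Cx3cr1* was at or near 0 throughout. The last-numbered culture of each group (4, 8, 12 and 16) had the highest astrocyte sum of its group (1555, 839, 2402 and 1836 FPKM) and also its highest *Dusp16* (5.74, 5.29, 13.4 and 5.88 FPKM). In cultures 4 and 8, however, 3.11 and 2.63 FPKM of *Dusp16* lay in isoforms without the signature. From signature-carrying isoforms alone, neither of these cultures was the highest of its group. Whether these cultures share a preparation is not given and was not tested. After subtraction of group means on the log2 scale, *Dusp4* ran against the neuronal marker sum over the 16 cultures (Pearson r = -0.88, Spearman rho = -0.75, and r = -0.79 without the 2 most distant cultures). *Dusp8* ran with it (r = 0.79, rho = 0.54, and r = 0.56 without 2 cultures). The points share their libraries and scaling, and the part of cell composition in the differences after OGD was not tested.

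**Figure D4:**
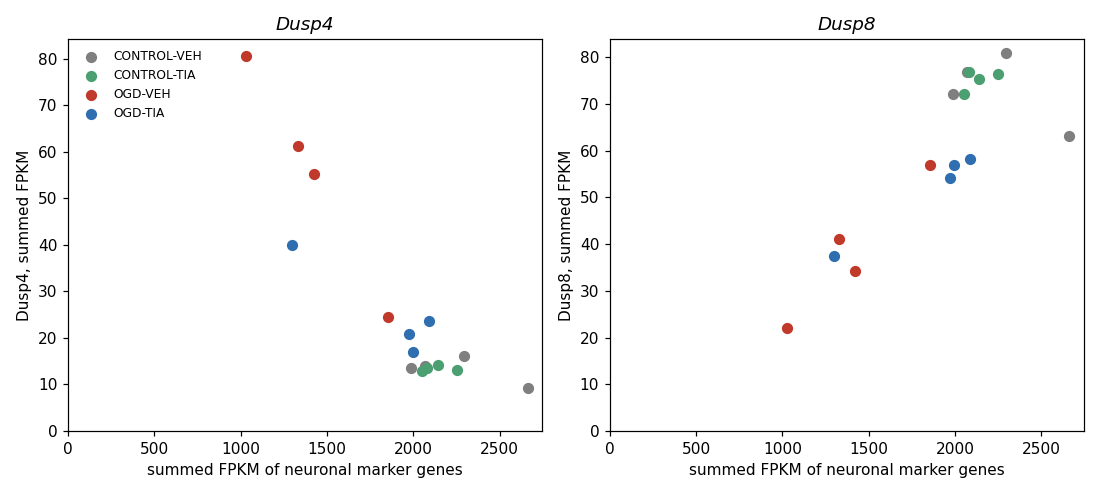
Summed FPKM of *Dusp4* (left) and *Dusp8* (right) against the summed FPKM of 9 neuronal marker genes (x axes) in 16 cultures, colored by group. OGD-VEH 12, with the lowest neuronal sum (1029 FPKM), has the highest *Dusp4* (80.7 FPKM) and the lowest *Dusp8* (22.1 FPKM).

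Members also varied together within groups. Over deviations from the group means in 16 cultures, *Dusp8* went with *Dusp2* (r = 0.89, rho = 0.77, and r = 0.70 without 2 cultures) and *Dusp7* (r = 0.87, rho = 0.75, and r = 0.68 without 2), and against *Dusp10* (r = -0.82, rho = -0.69, and r = -0.69 without 2). Among 13264 protein-coding genes, the one most like *Dusp8* was *Larp6* (r = 0.99). *Dusp2* was most like *Kcns1* (0.98), *Dusp10* most like *Ckap2* (0.98) and *Dusp16* most like *Isoc1* (0.98). *Dusp7* was most like *Chrm3* (0.94), *Dusp1* most like *Rbm8a* (0.92) and *Dusp6* most like *Alkal2* (0.91). *Dusp5* (*Cpsf1*, 0.88) and *Dusp14* (*Frmd5*, 0.80) had the weakest partners among these 9 members. Without the 2 most distant cultures, r of these 9 pairs lay between 0.68 (*Frmd5*) and 0.98 (*Larp6*), with 0.83 for *Alkal2*. The mean of *Alkal2* was 0.502 FPKM, just above the filter limit of 0.5. Each partner was picked as the highest of many correlations, which carry no test.

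Other dual-specificity phosphatases, a list that includes *Dusp9*, gave 1 call. Of its 19 genes, 14 were tested between OGD-VEH and CONTROL-VEH, with a median log2FC of -0.18, against 0.10 over all genes. Of these 14, 0 were called upregulated, against 2.4% of all genes, and 1 downregulated, against 1.68%. *Dusp26*, a phosphatase of neural tissue, fell from 24.8 ± 6.69 to 8.14 ± 2.90 FPKM (log2FC -1.61, limma padj = 0.0336). *Styx*, which encodes a catalytically inactive relative, had 22.8 ± 8.59 and 50.8 ± 9.50 FPKM (1.24, padj = 0.0512). *Ssh1* and *Dusp15* had log2FC values of 0.62 and -0.73, neither called.

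The MAP kinases and the kinases upstream of them gave 3 calls in the same comparison, in which 2.4% of all genes were called upregulated and 1.68% downregulated. Among the MAP kinases, 1 of 13 tested was called, *Mapk12* (p38γ), which rose from 2.20 ± 0.577 to 5.03 ± 0.926 FPKM (log2FC 1.17, limma padj = 0.034). *Mapk10* (JNK3, the neuronal form) passed the padj but not the fold limit (-0.60, padj = 0.0477), and *Mapk3* (ERK1; -0.61, padj = 0.0518) and *Mapk15* (-1.63, padj = 0.0583) did not pass. Of 7 MAP2 kinases 0 were called by limma, with 3 at an unadjusted p under 0.05 (*Map2k4* and *Map2k1* lower, *Map2k7* higher), against 35.0% of all genes. Of 21 MAP3 kinases tested, *Map3k20* was upregulated (1.46, padj = 0.0449) and *Map3k12* (DLK, a kinase of the neuronal stress response) downregulated (-1.06, padj = 0.036). *Map3k11* passed the padj only (0.83, padj = 0.0336). The medians of the 3 kinase lists were -0.02, 0.01 and 0.01, against 0.10 over all genes.

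ERK and other MAP kinases induce a set of early genes and transcription factors, of which 28 were tested. In this list 6 genes were called upregulated (*Atf3*, *Etv4*, *Etv5*, *Fos*, *Fosl1* and *Ier3*), against 2.4% of all genes, and 1 downregulated (*Egr3*), against 1.68%. The median log2FC was 0.45. *Etv5*, an ERK-responsive transcription factor, rose from 63.9 ± 10.0 to 155 ± 40.1 FPKM (1.25, limma padj = 0.0335), and *Ier3* from 1.56 ± 0.683 to 7.97 ± 3.87 FPKM (2.26, padj = 0.0357). Of the 12 feedback inhibitors 0 were called by limma, with 5 at an unadjusted p under 0.05 (35.0% of all genes), and *Spry2*, a Sprouty inhibitor of ERK signaling, passed the padj only (0.74, padj = 0.0488). Of 16 downstream kinases, ETS factors and RNA-binding proteins 0 were called by limma, with 8 at an unadjusted p under 0.05 (35.0% of all genes), and *Elk4* passed the padj only (0.89, padj = 0.0347). Of 9 scaffolds 0 were called by limma, with 6 at an unadjusted p under 0.05, all lower (14.9% of all genes), among them the arrestins *Arrb1* (-0.72, padj = 0.0437) and *Arrb2* (-0.58, padj = 0.0489). Their medians were 0.14, 0.26 and -0.29 in the same order. With TIA, 0 genes of any of these 8 lists were called between OGD-TIA and CONTROL-TIA by limma in the main analysis, as were 0.0% of all genes. The study, with its count-based test at the same thresholds, did report differentially expressed genes in this comparison.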

How the data were processed

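RNA-seq values of 16 primary cortical neuron cultures, 4 per group, were analysed. Per the labels and the study's methods, the authors' service provider made TruSeq stranded libraries of mRNA, ran 50-base single-end sequencing, aligned the reads with STAR to GRCm38 with an Ensembl annotation and estimated isoform expression with eXpress. In the deposited table each value was read as an isoform's FPKM scaled by TMM, because the file is named so. Of 135276 lines, 74 carried no identifier (at most 0.0594% of the FPKM) and were left out. By identifier, 99.885% of isoforms were found in GENCODE M21, and 98.863% of those had the same span. The assignment of reads to isoforms is probabilistic, so short isoforms with few reads can take large FPKM.

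Isoform FPKM were summed per gene symbol, and log2(FPKM + 0.1) was tested by limma 3.58.1 (R 4.3.3) with a trend on mean expression, for genes averaging 0.5 FPKM or more in the cultures of the fit. Fold changes are on this scale and understate those of low genes. Calls used the study's thresholds, a padj not above 0.05 and a log2 fold change of 1 or more in size. Its count-based test was not run on FPKM. For single genes, two-sided exact permutation tests enumerated 70 assignments. Culture numbers run from 1 to 16 across groups, so the labels give no pairing. The depth was estimated from 17592 single-isoform genes, and no counting intervals were computed because reads are estimates. Array quality weights, the pseudocount, the filter, the scaling, the weighting of isoforms and the omission of each culture were varied. The restrictions to protein-coding isoforms and to isoforms with the signature were added after the isoform values were seen. The same limma code was tested on simulated data.

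The members, gene lists and tests were chosen with earlier results of these data known. Named are all 10 members, at most the 4 genes of each list with the smallest p between OGD-VEH and CONTROL-VEH, and the protein-coding gene most like each member, which for *Dusp4* is not reported here. Beyond this rule, called genes of a list, *Dusp9* and marker genes were named after their values were seen. Tables and figures were made with matplotlib 3.10.9, scipy 1.17.1, pandas 2.3.3 and numpy 2.4.6 in Python 3.11.15.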

Additional observations from a re-analysis of the deposited data

Results flagged for a closer look

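In 5 of 40 groups of 4 cultures (10 genes in 4 groups), the summed FPKM of 1 culture lay far from the other 3 by Dixon's test, where chance gives about 1 in 20. *Dusp1* was 5.90 FPKM in OGD-VEH 9, below the other 3 cultures, and most of it was assigned to a retained-intron isoform. *Dusp16* was 5.74 FPKM in CONTROL-VEH 4 and 5.29 FPKM in CONTROL-TIA 8, above the others of each group, and in both cultures a short isoform without the phosphatase signature held a value that was 0 in the other cultures of the group. *Dusp2* was 6.73 FPKM in CONTROL-TIA 5 and *Dusp5* was 2.40 FPKM in CONTROL-VEH 1, each above its group.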

How the results depend on the processing

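Between OGD-VEH and CONTROL-VEH, the number of the 10 genes called was 2. It was 1 with a pseudocount of 1 (*Dusp4*, with 509 of all genes called by limma) and 0 without a filter on low values (36 of all genes). With all 16 cultures in one fit it was 3 (*Dusp4*, *Dusp5* and *Dusp10*, with 1390 of all genes). With array quality weights it was 4 (*Dusp4*, *Dusp5*, *Dusp10* and *Dusp16*, with 1929 of all genes). From protein-coding isoforms only it was also 4 (*Dusp4*, *Dusp5*, *Dusp7* and *Dusp16*, with 807 of all genes). Leaving out 1 culture gave 0 to 5. Array quality weights gave 2 calls between OGD-TIA and OGD-VEH (408 of all genes) and 1 for the interaction (101 of all genes), in place of 0. The counts of the other comparisons did not change in any setting run, and the pooled comparison kept 1 call (*Dusp4*). Over all genes, calls between OGD-VEH and CONTROL-VEH ranged from 36 to 1929 in the settings that kept all cultures, with 668 in the main analysis, 1120 with isoforms weighted by length and 642 with median-ratio scaling. Between OGD-TIA and CONTROL-TIA they ranged from 0 to 80 in these settings, with 0 in the main analysis, 80 with array quality weights and 73 with isoforms weighted by length. Leaving out 1 culture gave 0 to 16 there. The cause of these changes was not tested.

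Of 1089 values for single genes under another setting, 12 changed sign. Values between CONTROL-TIA and CONTROL-VEH, which lay near 0, were not among those counted. *Dusp1* between OGD-TIA and OGD-VEH changed sign to 0.37 and in the interaction to 0.36, both from protein-coding isoforms and from those with the signature. The others changed when 1 culture was left out, with log2 fold changes ranging from -0.62 to 0.0361 for *Dusp2* and from -0.14 to 0.41 for *Dusp6* between OGD-VEH and CONTROL-VEH. Between OGD-TIA and CONTROL-TIA they ranged from -0.37 to 0.0133 for *Dusp2*, from -0.31 to 0.0948 for *Dusp7* and from -0.0406 to 0.41 for *Dusp16*. For *Dusp2* they ranged from -0.0024 to 0.69 between OGD-TIA and OGD-VEH and from -0.29 to 0.40 in the interaction. No paired analysis was possible because the columns carry culture numbers from 1 to 16 that no 2 groups share. Depth was lowest for *Dusp2*, *Dusp10* and *Dusp5*, with an estimated 50.0, 67.2 and 81.2 reads in the lowest culture.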
